A study of Homo sapiens with 6 samples.

Results

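The genes described here are 42 genes of the lysosome and of autophagy, found by name among the 58735 rows of the deposited count table. They fall into 11 cathepsins, 15 other hydrolases and their helper proteins, 5 proteins of the lysosomal membrane and 11 autophagy genes with their transcription factors. Polyadenylated RNA was sequenced from MDA-MB-231, an established line from a human breast carcinoma that lacks hormone receptors and has a mesenchymal shape. All cells grew in DMEM-F12 with fetal bovine serum and glutamine. One condition received DMSO, the vehicle, and the other 2 µM Azeliragon, an antagonist of RAGE, for 72 h. RAGE is the receptor for advanced glycation end products, and the title of the series places it with SNAIL in epithelial-mesenchymal plasticity. There were 3 libraries per condition (a, b, c). The labels do not say that these came from separate cultures, so p-values measure the spread between the libraries, which may be technical.

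Lysosomes are acidic compartments where hydrolases break down proteins, sugars and lipids that arrive by endocytosis or by autophagy. In autophagy a double membrane closes around cytoplasm and then fuses with the lysosome, and adaptor proteins such as the product of SQSTM1 tether the cargo to it. TFEB and TFE3 are transcription factors that bind a short palindromic DNA element before many lysosomal genes, and the kinase complex MTORC1 holds them in the cytoplasm when nutrients are plentiful. In breast cancer, secreted cathepsins are known for cutting extracellular matrix.

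The element bound by TFEB gives a view of how these genes are built, independent of the measured values. RefSeq promoter windows (GRCh38.p14, 250 bases before to 50 after a start) matched 35 of the 42 genes, with 50 windows in all. The core CACGTG, which reads the same on both strands, stood in a window of 8 of the 35 genes (22.9%), CD63, CTSA, CTSD, CTSF, GAA, LAMP1, MCOLN1 and NEU1, and in 8.77% of all 27305 gene symbols in the table. The longer form TCACGTGA, which contains the core, stood in 4 of the 35 (11.4%, against 1.18% of all symbols), and the full palindrome GTCACGTGAC, which contains both, in GAA and MCOLN1 (5.71%, against 0.421%). The stretches below show where these letters lie, with the longest matching form in capitals. SQSTM1, whose RNA rose most of the 42 genes, is given at one of its starts because none of its windows held the core.
CTSD, chr11:1763928-1764027, minus strand: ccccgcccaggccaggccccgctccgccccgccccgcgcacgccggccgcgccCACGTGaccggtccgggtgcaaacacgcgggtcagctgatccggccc
CTSF, chr11:66568627-66568746, minus strand: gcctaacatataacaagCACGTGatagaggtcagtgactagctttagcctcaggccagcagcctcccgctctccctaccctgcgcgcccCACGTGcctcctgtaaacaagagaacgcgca
CTSA, chr20:45891275-45891334, plus strand: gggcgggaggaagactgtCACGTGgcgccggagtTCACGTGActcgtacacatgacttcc
GAA, chr17:80101481-80101580, plus strand: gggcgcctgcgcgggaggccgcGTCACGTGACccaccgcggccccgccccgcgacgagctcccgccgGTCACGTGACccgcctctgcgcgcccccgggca
MCOLN1, chr19:7522564-7522623, plus strand: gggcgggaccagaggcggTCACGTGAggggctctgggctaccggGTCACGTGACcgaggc
LAMP1, chr13:113297039-113297228, plus strand: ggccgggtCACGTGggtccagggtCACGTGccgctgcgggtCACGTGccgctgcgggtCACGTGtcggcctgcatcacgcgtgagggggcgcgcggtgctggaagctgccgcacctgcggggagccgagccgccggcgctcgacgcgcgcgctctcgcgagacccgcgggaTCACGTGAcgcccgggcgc
SQSTM1, chr5:179820805-179820904, plus strand: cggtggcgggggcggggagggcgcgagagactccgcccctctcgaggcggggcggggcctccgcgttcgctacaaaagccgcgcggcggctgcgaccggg

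In the CTSD window the core began at position -47, where position -1 is the last base before the RefSeq transcript start on which the window is placed. That start can lie inside the gene as GENCODE 29 bounds it, as it does for CTSD, CTSF, CTSA, GAA and the SQSTM1 start shown. In CTSF it began at -123 and -51, in GAA the full palindrome began at -78 and -33, and in MCOLN1 at -16. LAMP1 held 6 copies of the core, 5 of them in the stretch shown and the sixth across the start. These matches describe letters in a window and no binding was measured.

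Library totals lay between 41455979 and 44313584 counts, and all 42 genes passed the filter on low counts. The line's markers VIM, CD44, AXL, FN1 and CAV1 were abundant, CDH1 had 0 reads in DMSO and 1 with Azeliragon, and PGR had none. ERBB2 was read at 109 CPM in DMSO, where CPM are counts relative to the library total after TMM scaling. Of the other genes looked for as low or absent, EPCAM was read at 8.97 CPM in DMSO and 8.14 with Azeliragon. ESR1 had 0, 0 and 5 reads in DMSO a, b and c and 10, 9 and 14 in Azeliragon a, b and c. The 8 markers of leukocytes, endothelium and fibroblasts summed to 2.32 to 2.85 CPM in DMSO and 1.71 to 2.80 with Azeliragon, with PDGFRA at 0 in all 6 libraries. CPM are relative to all RNA of a library, so a change in RNA per cell and a change in a gene's share of it cannot be told apart. Library DMSO a stood apart from DMSO b and c, and nearer to the Azeliragon libraries, on the first principal component. Of the 42 genes, DMSO a was the DMSO library nearest to the Azeliragon mean for 21, and for 8 of the 9 that passed the test. Its part in the results was not tested beyond leaving it out.

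With Azeliragon, the aspartic protease gene CTSD fell by more than any other of the 42 genes, and 3 further cathepsins fell with it by smaller amounts. The autophagy adaptor SQSTM1 rose, as did LIPA and WIPI1, while the transcription factor TFEB and the sphingomyelinase gene SMPD1 fell. In all 3 genes rose, 6 fell and 33 did not pass (edgeR quasi-likelihood test, Benjamini-Hochberg adjusted p under 0.05 over 16081 genes). That is 7.14% rising and 14.3% falling, beside 2.75% and 3.53% of all genes tested, and 21.4% called in either direction beside 6.27%. Of the 12624 genes that met a stricter filter on abundance, which all 42 passed, 8.06% were called. The median log2 fold change was -0.03 over the 42 genes and -0.00 over all genes tested. The 42 values ran from -1.18 to 0.59, with 20 above and 22 below 0.

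**Figure D1:**
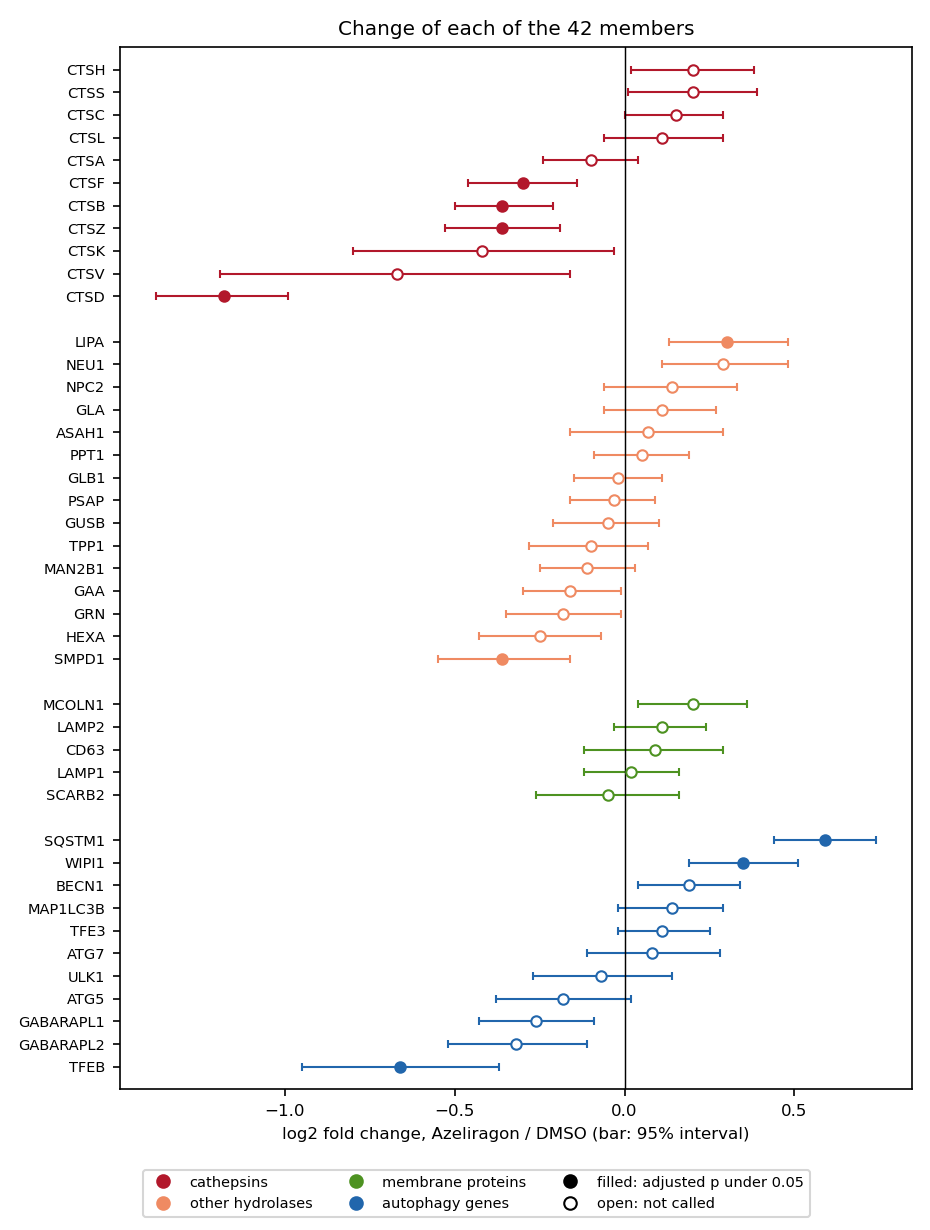
Log2 fold change of each of the 42 genes with Azeliragon relative to DMSO (x axis), with the 95% interval from the edgeR fit, in blocks of cathepsins, other hydrolases, membrane proteins and autophagy genes. Filled points passed an adjusted p of 0.05; CTSD lies at -1.18, apart from the rest, and SQSTM1 at 0.59 is the highest.

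The 3 libraries of a condition and those of the other did not overlap for 27 of the 42 genes (64.3%), where this held for 25.3% of all genes tested. Azeliragon was the higher condition for 13 of them, beside 12.1% of all genes, and the lower for 14, beside 13.2%. Most of these differences were small. All 42 genes met the stricter filter on abundance, which 12624 genes met, but the 25.3% covers all 16081 genes tested. The share among the 12624 was not computed, so the part of abundance was not tested. The libraries of DMSO also scattered more, with a median coefficient of variation of 7.06% over the 42 genes against 3.91% with Azeliragon, and the scatter was wider in DMSO for 31 of 42.

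**Figure D2:**
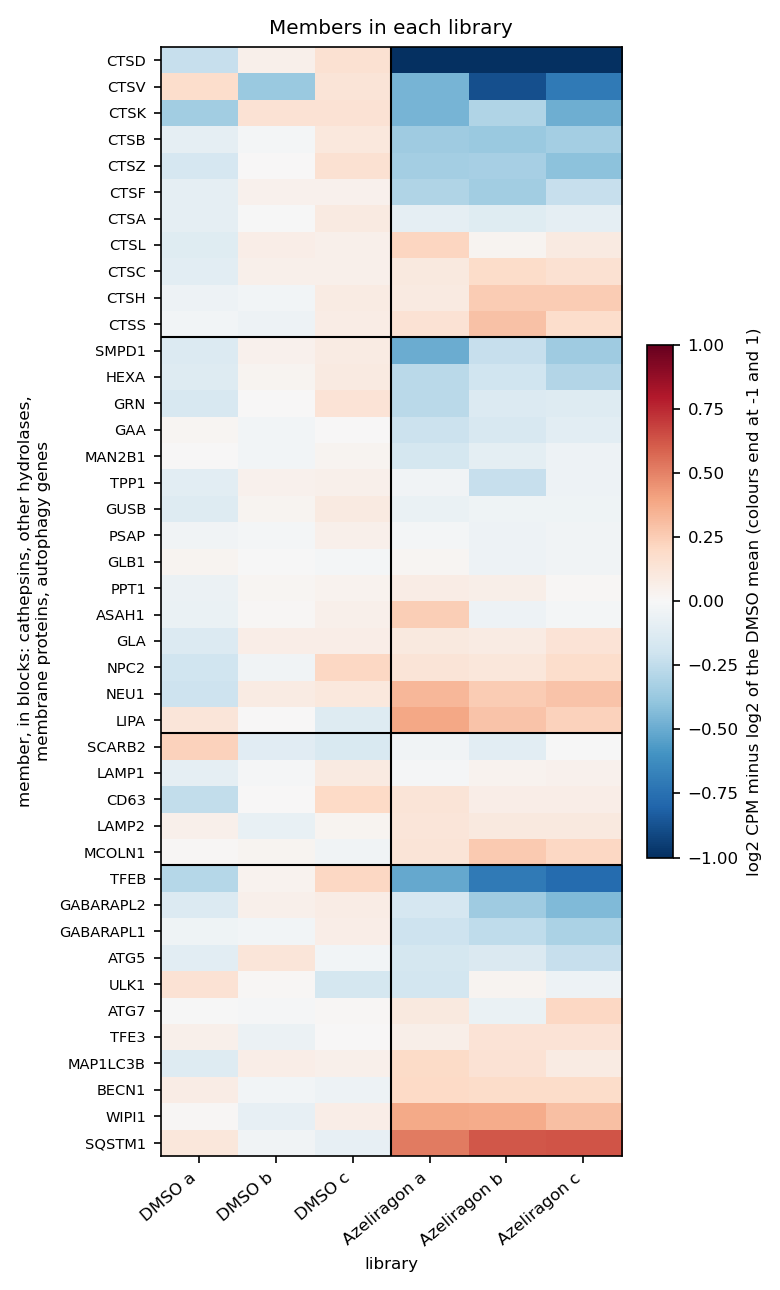
Each gene (rows, in the 4 groups divided by lines) in each library (columns), as log2 CPM minus the log2 of its DMSO mean. CTSD is the darkest row in all 3 Azeliragon libraries, SQSTM1 is high in all 3, and DMSO a has the tint opposite to DMSO c for many genes.

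Among the 11 cathepsins, proteases of the lysosome, 4 fell, none rose and 7 did not pass. That is 36.4% falling, beside 3.53% of all genes tested. The median log2 fold change of the 11 cathepsins was -0.30. CTSD, the main aspartic protease of lysosomes, is a minus-strand gene of chromosome 11, from 1752752 to 1764573 (GRCh38, GENCODE 29). It stood at 919, 1119 and 1198 CPM in DMSO a, b and c, and at 447, 489 and 490 CPM in Azeliragon a, b and c. All Azeliragon libraries lay below all DMSO libraries, and DMSO a was the nearest of the DMSO libraries. The mean was 1079 ± 144 CPM in DMSO and 475 ± 25 with Azeliragon (n = 3 per condition, SD), a 2.27-fold fall (log2 fold change -1.18, SE 0.09, 95% interval -1.38 to -0.99; edgeR adjusted p = 2.25e-05). The reads behind these levels were 41534, 48328 and 51726 in DMSO and 19206, 21358 and 20324 with Azeliragon. Of all genes tested, 1.01% had a log2 fold change as low as that of CTSD or lower.

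Other transcripts overlap CTSD, and the strand setting of the counting is not given in the sources used here. The antisense gene AC068580.3 covers 15.8% of its exon bases and also fell, 1.90-fold (edgeR adjusted p = 0.00169), but its reads came to 0.614% of those of CTSD. A protein-coding gene on the same strand, AC068580.4, covers 41.7%, and its reads came to 0.0612%. Whether reads in the shared part were dropped or assigned was not tested.

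CTSB, CTSZ and CTSF, cysteine proteases of the papain family, fell by less than CTSD. CTSB stood at 336, 352 and 385 CPM in DMSO a, b and c and at 279, 277 and 283 with Azeliragon, a 1.28-fold fall (log2 fold change -0.36, SE 0.07; edgeR adjusted p = 0.00629). CTSZ, which trims single residues from the carboxyl end of proteins, stood at 416, 468 and 518 CPM in DMSO and at 370, 372 and 351 with Azeliragon, also 1.28-fold lower (SE 0.08; edgeR adjusted p = 0.0160). CTSF stood at 48.3, 53.0 and 53.2 CPM in DMSO and at 41.7, 40.4 and 43.8 with Azeliragon, a 1.23-fold fall (SE 0.07; edgeR adjusted p = 0.0341). On GRCh38 the genes span 11842524 to 11869448 of chromosome 8, 58995185 to 59007247 of chromosome 20 and 66563463 to 66568841 of chromosome 11. No library of one condition reached into the other for these 3 genes, and DMSO a was the lowest DMSO library each time. The calls of CTSB, CTSZ and CTSF were less steady than that of CTSD: leaving out any 1 Azeliragon library ended each of them. Leaving out DMSO b ended those of CTSZ and CTSF, and leaving out DMSO c that of CTSF. The adjusted p from edgeR reached 0.0585, 0.126 and 0.182 in these fits.

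The 7 other cathepsins did not pass, and they lay on both sides of 0. CTSH, CTSS and CTSC were higher with Azeliragon in every library, by log2 fold changes of 0.20, 0.20 and 0.15 (edgeR adjusted p = 0.191, 0.220 and 0.237). CTSC encodes the protease that activates granule serine proteases, and CTSS a protease known from antigen presentation. CTSL had a log2 fold change of 0.11 and CTSA, a serine carboxypeptidase that also shields the enzymes of GLB1 and NEU1, -0.10. CTSA stood at 170, 180 and 192 CPM in DMSO and at 170, 166 and 170 with Azeliragon. All its Azeliragon libraries lay below all DMSO libraries, but DMSO a was level with Azeliragon a and c to the digits shown. Without DMSO a, when 23.7% of all genes passed, CTSA passed too (edgeR adjusted p = 0.0403). CTSV, a close relative of CTSL, and CTSK, known from bone matrix breakdown, were the scarcest. CTSV stood at 2.39, 1.64 and 2.32 CPM in DMSO and at 1.53, 1.15 and 1.30 with Azeliragon (log2 fold change -0.67 with an interval of -1.19 to -0.16, edgeR adjusted p = 0.126), resting on 50 to 108 reads a library. CTSK overlapped between conditions, with 3.85 ± 0.71 and 2.88 ± 0.20 CPM in DMSO and Azeliragon (n = 3 per condition, SD; log2 fold change -0.42, edgeR adjusted p = 0.210).

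**Figure D3:**
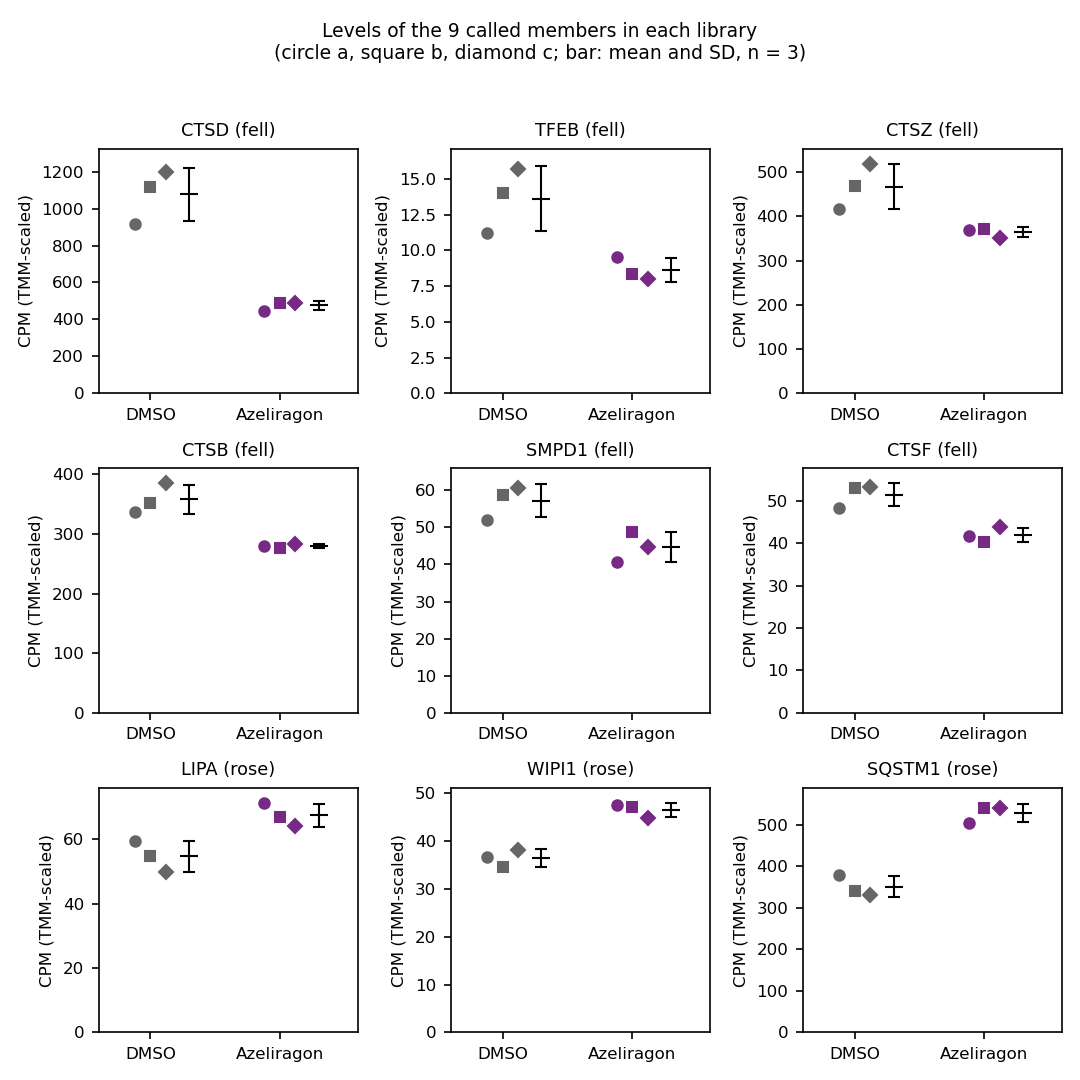
TMM-scaled CPM (y axis, from 0) of the 9 genes that passed the test in each library of DMSO and Azeliragon; symbols mark the library letter, and the bar gives the mean and SD of 3 libraries. The conditions do not overlap in any panel; the gap is widest for CTSD and SQSTM1, and DMSO a (circle) is the DMSO library nearest to Azeliragon in all but the WIPI1 panel.

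Levels of different genes were compared per kilobase of transcript. In DMSO, CTSD was the highest of the 42 genes at 508 ± 68 CPM per kilobase, before CD63 (400 ± 61), PSAP (330 ± 11) and CTSZ (313 ± 34; n = 3 per condition, SD). With Azeliragon, CD63 (425 ± 11) was highest, then PSAP (322 ± 3.2), CTSZ (244 ± 7.9) and CTSD (224 ± 12). CTSZ and CTSD with Azeliragon lay 20 CPM per kilobase apart, a gap not far above their SDs. CTSZ was the higher in every Azeliragon library. The order of PSAP and CTSZ in DMSO is not firm against their SDs. CTSD made up 42.5% to 45.0% of the summed level per length of the 11 cathepsins in the DMSO libraries, while CTSZ led that sum in every Azeliragon library, with 30.1% to 32.2%. The sum itself was 1019, 1172 and 1258 CPM per kilobase in DMSO and 767, 791 and 779 with Azeliragon. CTSV was the lowest of the 42 genes in both conditions, at 0.490 CPM per kilobase in DMSO and 0.307 with Azeliragon.

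**Figure D4:**
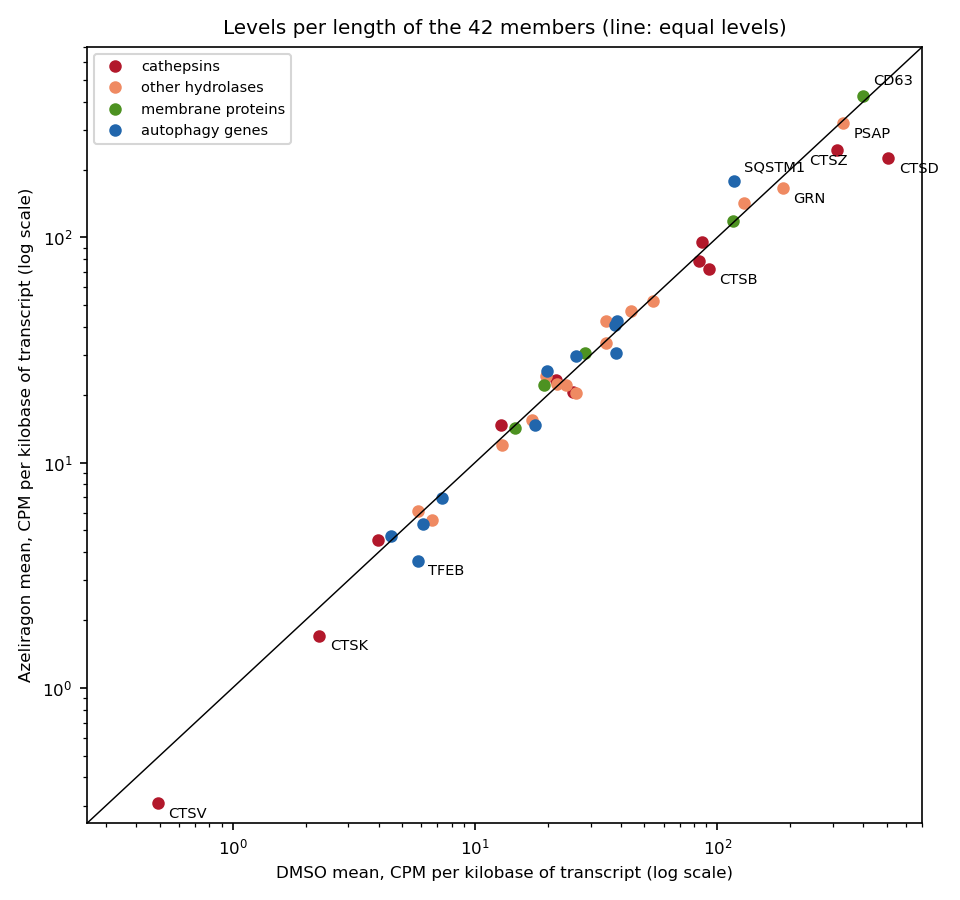
Mean level of each of the 42 genes in DMSO (x axis) and Azeliragon (y axis), in CPM per kilobase of transcript, both on log scales, with the line of equal levels. Most points lie near the line. CTSD, CTSV, TFEB, CTSK, CTSZ and CTSB are among those below it, of which CTSV and CTSK did not pass the test. SQSTM1 lies above it.

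Among the 15 other hydrolases and helper proteins, LIPA rose, SMPD1 fell and 13 did not pass, with a median log2 fold change of -0.03. That is 6.67% rising and 6.67% falling, beside 2.75% and 3.53% of all genes tested. LIPA and SMPD1 both concern lipids. LIPA encodes the acid lipase that frees cholesterol and fatty acids from lipoprotein esters in the lysosome. It stood at 59.3, 54.6 and 49.9 CPM in DMSO a, b and c and at 71.2, 66.7 and 64.1 in Azeliragon a, b and c, 1.23-fold higher (log2 fold change 0.30, SE 0.08; edgeR adjusted p = 0.0426). SMPD1 encodes acid sphingomyelinase, which makes ceramide from sphingomyelin. It stood at 52.1, 58.8 and 60.7 CPM in DMSO and at 40.6, 48.7 and 44.8 with Azeliragon, 1.28-fold lower (log2 fold change -0.36, SE 0.09; edgeR adjusted p = 0.0321). LIPA spans 89213569 to 89414557 of chromosome 10, and SMPD1 6390431 to 6394998 of chromosome 11. The conditions did not overlap for either gene. Both calls held only when DMSO a was the library left out, and were lost without any other single library (edgeR adjusted p up to 0.199 for LIPA and 0.187 for SMPD1). With library totals in place of TMM the call of LIPA was lost too (edgeR adjusted p = 0.0697). IFIT2 shares 1.32% of the exon bases of LIPA on the opposite strand, with reads that came to 8.09% of those of LIPA.

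NPC2, which hands freed cholesterol to the membrane protein NPC1, did not pass (log2 fold change 0.14 with an interval of -0.06 to 0.33, edgeR adjusted p = 0.430). ASAH1, acid ceramidase, which breaks ceramide down, had a log2 fold change of 0.07 (95% interval -0.16 to 0.29). PSAP, the precursor of the saposins that present sphingolipids to hydrolases, was the most abundant of this group, at 926, 932 and 982 CPM in DMSO and 932, 914 and 926 with Azeliragon. Its log2 fold change was -0.03 with a 95% interval of -0.16 to 0.09. GRN, the growth factor precursor progranulin, whose granulins act in lysosomes, overlapped between conditions (436 ± 45 against 386 ± 21 CPM; n = 3 per condition, SD; edgeR adjusted p = 0.229).

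The glycosidases gave 1 gene near the threshold. NEU1, the lysosomal sialidase, stood at 61.5, 75.4 and 76.4 CPM in DMSO and at 89.7, 84.9 and 86.5 with Azeliragon, without overlap (log2 fold change 0.29; edgeR adjusted p = 0.0652). It passed with DESeq2, without a filter on low counts, with each library's trend on length and GC content removed, and without DMSO a or DMSO c. In that order, these fits called 8.83%, 5.78%, 10.6%, 23.7% and 4.94% of all genes, beside 6.27% as reported. HEXA, a subunit of beta-hexosaminidase, GAA, the acid alpha-glucosidase that degrades glycogen, and MAN2B1, an alpha-mannosidase, were lower in every Azeliragon library, with log2 fold changes of -0.25, -0.16 and -0.11 (edgeR adjusted p = 0.101, 0.200 and 0.383). GLA, the alpha-galactosidase gene, was slightly higher in every Azeliragon library (log2 fold change 0.11; edgeR adjusted p = 0.468). GLB1, the acid beta-galactosidase gene, and GUSB, the beta-glucuronidase gene often used as a reference for expression, had log2 fold changes of -0.02 and -0.05. The pseudogene GUSBP1 had reads at 3.22% of those of GUSB. TPP1, a tripeptidyl peptidase, and PPT1, which removes palmitate from proteins, had -0.10 and 0.05. The exons of PPT1 share 23.4% of their bases with CAP1 on the opposite strand, whose reads came to 226% of those of PPT1, so the PPT1 count is uncertain. CAP1 itself rose (log2 fold change 0.30, edgeR adjusted p = 0.0284).

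None of the 5 membrane proteins passed in the edgeR test as reported, and 1 of them, MCOLN1, had an unadjusted p under 0.05. DESeq2 and limma-voom called none of them either. Of all genes tested, 6.27% passed in the edgeR test as reported, so none of 5 says little about this group. MCOLN1 encodes the calcium channel of the lysosomal membrane that can set off TFEB activation. It stood at 40.3, 40.7 and 39.0 CPM in DMSO and 43.7, 48.0 and 46.2 with Azeliragon, higher in every library (log2 fold change 0.20 with an interval of 0.04 to 0.36, edgeR adjusted p = 0.135). It passed with the length and GC trend removed and without DMSO a (edgeR adjusted p = 0.0127 and 0.0400). Those fits called 10.6% and 23.7% of all genes. LAMP1 and LAMP2, the heavily glycosylated proteins that coat the inner face of the membrane, had log2 fold changes of 0.02 (95% interval -0.12 to 0.16) and 0.11 (-0.03 to 0.24). CD63, a tetraspanin of lysosomes and exosomes, ran from 417 in DMSO a to 568 CPM in DMSO c, and all 3 Azeliragon libraries fell inside that range, at 539, 516 and 516. SCARB2, the receptor that carries glucocerebrosidase to lysosomes, was at 82.4 CPM in DMSO a and at 64.9 and 63.3 in DMSO b and c, with Azeliragon between 65.3 and 70.0. The intervals of LAMP1 and LAMP2 held no change as large as the fall of CTSD or the rise of SQSTM1.

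Among the 11 autophagy genes and their transcription factors, SQSTM1 and WIPI1 rose, TFEB fell and 8 did not pass. That is 18.2% rising and 9.09% falling, beside 2.75% and 3.53% of all genes tested. SQSTM1, a plus-strand gene of chromosome 5 from 179806398 to 179838078, encodes the adaptor that links ubiquitin-tagged cargo to the autophagosome. It stood at 379, 342 and 331 CPM in DMSO a, b and c and at 504, 540 and 542 in Azeliragon a, b and c. Every Azeliragon library lay above every DMSO library, and DMSO a was again the nearest. The mean went from 351 ± 25 to 529 ± 22 CPM (n = 3 per condition, SD), a 1.51-fold rise (log2 fold change 0.59, SE 0.07, 95% interval 0.44 to 0.74; edgeR adjusted p = 0.000264). MGAT4B shares 1.37% of the exon bases of SQSTM1 on the opposite strand, with reads that came to 59.0% of those of SQSTM1 and a log2 fold change of 0.01. MRNIP covers 20.7% there. Its reads came to 4.92% of those of SQSTM1, and it did not pass (log2 fold change 0.27; edgeR adjusted p = 0.0792).

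TFEB was scarce beside its relative TFE3. In DMSO the level per length was 5.79 ± 0.98 CPM per kilobase for TFEB and 37.8 ± 1.5 for TFE3 (n = 3 per condition, SD). TFEB, on chromosome 6 at 41683978 to 41736259, stood at 11.2, 14.0 and 15.7 CPM in DMSO and at 9.56, 8.36 and 7.98 with Azeliragon, on 331 to 679 reads a library. The fall was 1.58-fold (-0.66 on the log2 scale, SE 0.13, 95% interval -0.95 to -0.37; edgeR adjusted p = 0.0110). The gap between DMSO a and Azeliragon a was small next to the spread of the DMSO libraries. The call ended when DMSO b, Azeliragon b or Azeliragon c was left out, with an edgeR adjusted p of 0.0604, 0.0622 and 0.0683. TFE3 was at 134, 124 and 130 CPM in DMSO and at 135, 142 and 142 with Azeliragon and did not pass (log2 fold change 0.11 with an interval of -0.02 to 0.25, edgeR adjusted p = 0.335).

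WIPI1, which binds the phosphoinositide of the forming autophagosome, stood at 36.7, 34.5 and 38.1 CPM in DMSO and at 47.5, 47.2 and 44.8 with Azeliragon, a 1.28-fold rise (log2 fold change 0.35, SE 0.07; edgeR adjusted p = 0.0140). The gene spans 68420948 to 68457513 of chromosome 17. The conditions did not overlap, but the call ended when DMSO b or 1 of the Azeliragon libraries was left out (edgeR adjusted p up to 0.0984). ARSG lies on the opposite strand over 24.3% of its exon bases, with reads at 8.99% of those of WIPI1 and a log2 fold change of -0.27 (edgeR adjusted p = 0.346). GABARAPL1 and GABARAPL2, ubiquitin-like proteins that are joined to the autophagosome membrane, were both lower in every Azeliragon library without passing (log2 fold changes -0.26 and -0.32; edgeR adjusted p = 0.0723 and 0.0734). Both passed with DESeq2, with the length and GC trend removed, and without DMSO a. Those fits called 8.83%, 10.6% and 23.7% of all genes, beside 6.27% as reported. MAP1LC3B, which encodes the related LC3 protein, was higher in every Azeliragon library, at 95.1 to 109 CPM in DMSO and 110 to 119 with Azeliragon (log2 fold change 0.14; edgeR adjusted p = 0.306). FBXO31, on the opposite strand over 2.82% of its exon bases, had reads at 41% of those of MAP1LC3B and a log2 fold change of 0.15. The near-identical MAP1LC3B2 had reads at 0.395% of those of MAP1LC3B.

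BECN1, ULK1, ATG5 and ATG7, which act in starting autophagy and lengthening its membrane, did not pass as reported. BECN1, a part of the lipid kinase complex, was higher in every Azeliragon library (54.9 ± 2.5 against 62.6 ± 0.50 CPM; n = 3 per condition, SD; log2 fold change 0.19; edgeR adjusted p = 0.129). BECN1 passed with the length and GC trend removed and without DMSO a (edgeR adjusted p = 0.0426 and 0.00815). Those fits called 10.6% and 23.7% of all genes. PSME3 covers 4.68% of its exon bases on the opposite strand, with reads that came to 584% of those of BECN1 and a log2 fold change of 0.20, so the BECN1 count is uncertain. The kinase gene ULK1 had -0.07 and overlapped. The conjugation enzyme genes ATG5 and ATG7 had log2 fold changes of -0.18 and 0.08. VGLL4 covers 18.1% of the exon bases of ATG7 on the opposite strand, with reads that came to 121% of those of ATG7.

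Of the 8 genes with a CACGTG core in a promoter window, CTSD and CTSF fell, none rose and 6 did not pass. Of the 27 genes whose windows lacked it, 3 rose, 3 fell and 21 did not pass. CTSB, which fell, had no window and is in neither count. Among all genes tested, 2.75% rose and 3.53% fell. All 4 genes with TCACGTGA, CTSA, GAA, LAMP1 and MCOLN1, were among those that did not pass. With 6.27% of all genes tested called, none of 4 says little about them. These counts describe letters in windows, and neither binding nor TFEB protein was measured.

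Further genes of the same pathways came from 9 lists with 147 genes, of which 140 were tested. Of these, 13 rose, 3 fell and 124 did not pass, beside 2.75% and 3.53% of all genes. Without DMSO a 33 rose and 13 fell, and leaving out another library in turn gave 4 to 11 calls. Of all genes, 23.7% were called without DMSO a and 2.68% to 4.94% without another library. Among 16 lysosomal membrane proteins tested, NPC1, which moves cholesterol out of lysosomes, rose 1.72-fold from 70.3 ± 6.6 to 121 ± 7.2 CPM (n = 3 per condition, SD; edgeR adjusted p = 0.000122). The chloride transporter gene CLCN7 rose 1.23-fold, and the other 14 did not pass. NPC1 kept its call with each library left out.

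Of 19 genes that set TFEB activity through MTORC1 and folliculin, RRAGD, a GTPase of that pathway, rose 1.45-fold from 14.0 ± 0.50 to 20.3 ± 1.5 CPM, and FLCN, folliculin itself, rose 1.37-fold from 39.7 ± 3.6 to 54.5 ± 0.70 CPM (n = 3 per condition, SD; edgeR adjusted p = 0.00441 and 0.00466). The other 17 did not pass, and the median of the list was 0.07. Both calls held with each library left out. Of 13 genes for the fusion of autophagosomes with lysosomes, EPG5, PLEKHM1 and VPS18 rose, by 1.48-fold, 1.37-fold and 1.27-fold, and 10 did not pass. Beside the counts of these lists, 6.27% of all genes tested were called. PLEKHM1, an adaptor for fusion, kept its call with each library left out, EPG5 with 4 of the 6 and VPS18 with 2.

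The other lists held few calls. With 6.27% of all genes tested called, 1 or 2 calls say little about a list. Among the further hydrolases and cofactors, SGSH, which degrades heparan sulfate, rose 1.21-fold, and the scarce CTSW fell 1.91-fold. Of 17 genes for the vacuolar ATPase, the proton pump that acidifies lysosomes, ATP6V0A1 rose 1.29-fold and 16 did not pass. Of 11 genes that sort enzymes to lysosomes, SORT1 rose 1.28-fold and GGA2 1.20-fold. Of 4 cystatin-type inhibitors of cysteine proteases that were tested, CST6 fell 1.34-fold. Of 26 further genes of the autophagy machinery, ATG2A rose 1.20-fold and VMP1 fell 1.21-fold. None of 7 autophagy receptor genes passed in the edgeR test as reported or in DESeq2, and 1 fell with the length and GC trend removed. Without DMSO a 1 of the 7 rose and 2 fell, beside 23.7% of all genes called. The genes in this paragraph that passed as reported had edgeR adjusted p-values of 0.0112 to 0.0493, and each call held in 1 to 3 of the 6 sets of 5 libraries.

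How firm the 9 calls were differed greatly. CTSD and SQSTM1 passed in all 6 sets of 5 libraries (edgeR adjusted p up to 0.00132 and 0.00520), and the other 7 did not. Without DMSO a 6 of the 42 genes rose and 12 fell, but 23.7% of all genes then passed, 12.9% rising and 10.8% falling. By group that was 6 cathepsins, 5 other hydrolases, 1 membrane protein and 6 autophagy genes. Without DMSO c 3 rose and 4 fell, beside 4.94% of all genes called. Leaving out DMSO b, or 1 of the Azeliragon libraries, left 1 gene that rose, SQSTM1, and 1 or 2 that fell, CTSD among them, beside 2.68% to 3.01% of all genes called. With the trend on length and GC content removed 6 genes rose and 8 fell, beside 5.91% and 4.69% of all genes. All genes then gave 950 rises and 754 falls in place of 442 and 567.

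**Figure D5:**
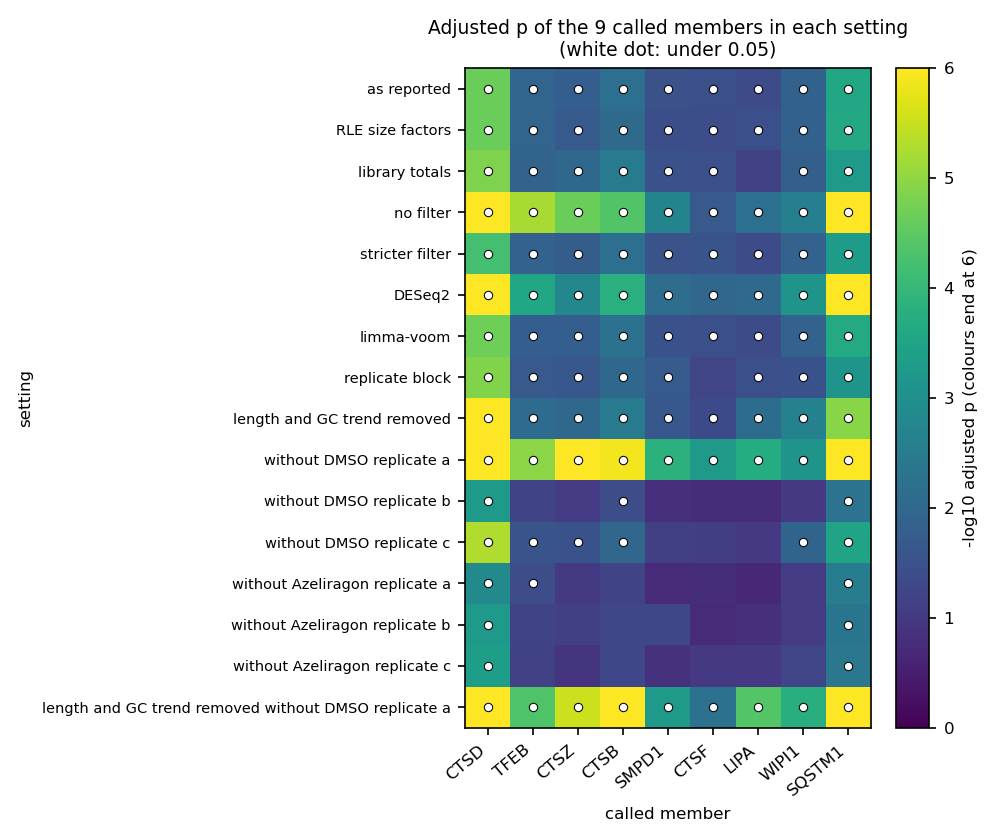
Adjusted p on the -log10 scale (colour) of the 9 genes that passed the test (columns) in the reported fit and in each other setting (rows); a white dot marks an adjusted p under 0.05. CTSD and SQSTM1 carry a dot in every row, while the other 7 lose it in at least 3 of the rows that leave out a library.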

How the data were processed

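The values the authors deposited are raw counts for each gene name in each library. The submitters' processing notes list featureCounts 1.5.0-p3, STAR 2.6.1d, GRCh38 and limma but not what each did. The annotation and the strand setting were not given in any source used here, so genes with overlapping exons (18 of the 42) share uncertain reads. Of 58735 names, 58722 matched GENCODE 29; 2 names turned into numbers (0% of counts) were left out.

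Counts were filtered with filterByExpr, scaled by TMM and tested with edgeR 4.0.16 (glmQLFit, glmQLFTest) on treatment, with Benjamini-Hochberg adjustment over 16081 genes and a threshold of 0.05. The test was checked on simulated counts. Lengths are those of the longest principal transcript. A read was worth 0.0221 to 0.0241 CPM. Library pairs within a condition differed by at least 4.39 in chi-square per degree of freedom, so none was a copy. R 4.3.3, DESeq2 1.42.0, limma 3.58.1, Python 3.11.15 and matplotlib 3.10.9 were used.

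The 42 genes, the 9 further lists and the naming rule (members past the threshold or without overlap, the most abundant others, up to 3 called genes a list) were chosen with earlier results of these data known. The result of 1 gene of these lists is not reported here.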

Additional observations from a re-analysis of the deposited data

How the results depend on the processing

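Other scalings (RLE, library totals), filters (none, or stricter with at least 1 CPM in 3 libraries and 50 counts on average), tools (DESeq2, limma-voom) and designs (a replicate block, each library left out) were tried, as was removing each library's trend on length and GC content. RLE, limma-voom and the stricter filter changed no call among the 42 genes. Library totals left 1 other hydrolase called in place of 2, beside 5.8% of all genes called. DESeq2 called 5 autophagy genes in place of 3, beside 8.83% of all genes in place of 6.27%. With the trend removed 6 genes rose in place of 3, and 1 membrane protein and 6 autophagy genes passed, beside 10.6% of all genes. With the trend and DMSO a both removed 8 genes rose, 12 fell, and 6 other hydrolases, 1 membrane protein and 7 autophagy genes passed, beside 22.3% of all genes. The cause was not tested. With a library left out, the counts ran from 1 to 6 genes rising, 1 to 12 falling, 1 to 6 cathepsins, 0 to 5 other hydrolases, 0 to 1 membrane proteins and 1 to 6 autophagy genes. Of all genes, 2.68% to 23.7% were called in these fits. Over all genes 1009 passed as reported, 1685 without a filter, 1704 with the trend removed, 3916 without DMSO a, 473 without DMSO b, 819 without DMSO c, and 445, 500 and 448 without Azeliragon a, b and c.

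Signs turned for genes near 0 that did not pass: with a library left out LAMP1 ran from -0.02 to 0.07, CD63 from -0.02 to 0.20, SCARB2 from -0.12 to 0.08, ULK1 from -0.15 to 0.01 (all turned without DMSO a) and ASAH1 from -0.03 to 0.12 (turned without Azeliragon a); with the trend and DMSO a removed GLB1 was at 0.01, PPT1 at -0.05 and ATG7 at -0.02 (log2 fold changes). Deviations of libraries with the same letter correlated at 0.03, 0.02 and -0.04, so no pairing by letter was seen. With 3 libraries per condition this cannot show that there was none. With the replicate block 3 genes rose and 5 fell, CTSF being lost (edgeR adjusted p = 0.0550), beside 5.65% of all genes called.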
